A study of Sus scrofa with 15 samples.

Results

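The genes described are 9 components of the connective tissue matrix of muscle, namely the collagen chains COL1A1, COL1A2 and COL3A1, the proteoglycans DCN, LUM and BGN, and the glycoproteins FN1, POSTN and SPARC. They were found by the gene name or description that the array files give for each probe, and a probe was kept if 7 or more of the 15 arrays showed it well above background. Of the 9 genes, 8 were measured, by 35 probes, all of which passed that filter, among 5029 genes and 31984 probes tested in all. No probe carried the name of COL3A1, which was therefore not analysed here. The samples were Longissimus muscle, a back muscle, of 15 pigs at 20 kg body weight, fed ad libitum. They came from lines selected for low residual feed intake (low_RFI, labelled RFIneg, n = 7) or high residual feed intake (high_RFI, labelled RFIpl, n = 8). Residual feed intake is the part of an animal's feed intake that its growth and maintenance needs do not account for. Each pig had its own 1-colour array, and the labels used here give no age, sex or litter.

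The muscle matrix is a mesh that binds fibres into bundles and carries force to tendon. Type I collagen, built from COL1A1 and COL1A2 chains, forms its main fibrils, small leucine-rich proteoglycans coat those fibrils and set their spacing and thickness, and glycoproteins link the mesh to the cells. Fibroblasts make most of these transcripts, and fibres make few of them. The samples were whole tissue, so fewer cells of a type and less RNA per cell cannot be told apart in any value below.

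Selected probe sequences are printed here 5′ to 3′ as the array files list them. The first pair are the brightest probes of COL1A1 and COL1A2, whose levels followed each other most closely over the pigs. Capitals mark the longest run of bases that both hold, which is 10 bases long. That run stood in 2 of the 31984 tested probes as listed, these 2, and its complement in 2 others.
COL1A1 probe A_72_P442299: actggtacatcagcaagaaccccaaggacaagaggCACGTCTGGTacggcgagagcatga
COL1A2 probe A_72_P107881: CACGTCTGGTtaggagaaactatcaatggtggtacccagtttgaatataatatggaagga
The next is 1 of the 8 probes of LUM, the gene with the largest line difference. It is not the brightest one, which stands for the gene in the fit, and its own difference is given with the other LUM probes.
LUM probe A_72_P560404: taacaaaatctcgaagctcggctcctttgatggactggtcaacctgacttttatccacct
The last is a 60-base sequence that stood on the array under 2 probe names of SPARC, A_72_P130355 and A_72_P554191, and that had higher correlations with the other genes over the 15 pigs than the remaining SPARC probes had.
SPARC probe A_72_P130355: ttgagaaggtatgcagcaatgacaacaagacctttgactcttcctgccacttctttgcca

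A further COL1A2 probe shows the collagen repeat in its letters. A collagen helix has glycine in a regular place in each of its short repeats, and glycine codons begin with GG. On the strand opposite to the listed one, this probe reads GGN at 6 codons of 1 frame, with 2 other codons between each and the next; these 6 are in capitals, first on that strand and then as listed.
COL1A2 probe A_72_P053171, complement: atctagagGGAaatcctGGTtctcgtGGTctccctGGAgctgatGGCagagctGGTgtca
COL1A2 probe A_72_P053171, as listed: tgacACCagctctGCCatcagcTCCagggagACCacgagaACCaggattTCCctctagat
Of the 31984 tested probes, 8 (0.0250%) had GGN at all codons so placed in some frame, on either strand. Those with 1 gene symbol were this COL1A2 probe, COL7A1, COL8A1, COL11A1, C1QTNF2, whose protein has a collagen-like stretch, and a gene with only a LOC name. The files name the COL1A2 probe by similarity to the rat chain.

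Levels are log2 scanner signal minus the 75th percentile of the array's probes, so a difference of 1 is 2-fold. They are not compared between probes, whose brightness depends on their sequence. The arrays had 61.7% to 79.4% of their probes well above background, no saturated probe spot, and pairwise correlations over probes of 0.969 to 0.986. Skeletal muscle fibre markers marked the tissue as labelled, with 15 of 16 listed genes tested and ACTA1, skeletal actin, at 10.3 ± 0.13 in low_RFI pigs and 10.3 ± 0.11 in high_RFI pigs (SD, n = 7 and 8). The array names number the pigs 1 to 8 or 55 to 62. Each run of numbers held both lines, with 4 low_RFI and 4 high_RFI pigs in the run 1 to 8, and 3 low_RFI and 4 high_RFI pigs in the run 55 to 62. Where nothing says how the pigs were related, p-values measure only the spread between these samples.

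None of the 8 matrix genes differed between the lines at an adjusted p under 0.05 (limma, Benjamini-Hochberg over 5029 genes), against 0.0199% of all genes. At an unadjusted p under 0.05 there was 1 of 8, LUM, against 7.12% of all genes. There were 4 genes with a higher and 4 with a lower mean in low_RFI pigs. The median difference of the 8 was 0.015 (log2, low_RFI minus high_RFI), beside 0.015 over all genes. The lines overlapped in each of the 8 genes.

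**Figure D1:**
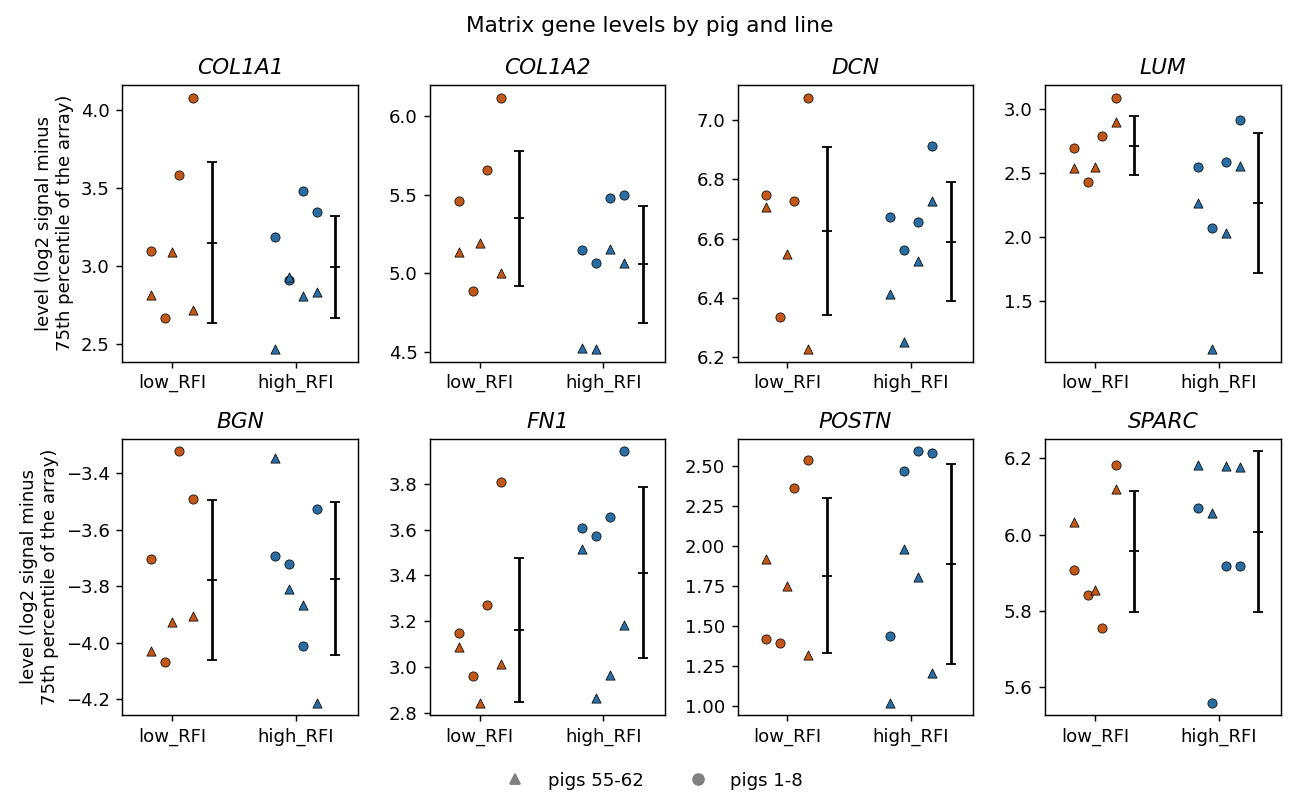
Level of each matrix gene in each pig, in log2 signal minus the 75th percentile of the array, with low_RFI (orange, n = 7) left of high_RFI (blue, n = 8); triangles are pigs 55 to 62, circles pigs 1 to 8, and bars are mean ± SD. The lines overlap in every panel, the low_RFI pigs of LUM lie between 2.43 and 3.09, and 1 high_RFI pig of LUM lies at 1.12.

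COL1A1 and COL1A2 encode the chains of type I collagen. The COL1A1 level ran from 2.67 through a median of 3.09 to 4.08 in low_RFI pigs, and from 2.47 through 2.93 to 3.48 in high_RFI pigs. The highest value came from low_RFI replicate 4, and both lines had most of their pigs between 2.67 and 3.59. The means were 3.15 ± 0.51 in low_RFI and 2.998 ± 0.33 in high_RFI pigs (SD, n = 7 and 8), a difference of 0.16 ± 0.21 (SE, limma adjusted p = 0.972). Without low_RFI replicate 4 that difference was 0.00017. The COL1A2 level ran from 4.89 through 5.19 to 6.12 in low_RFI pigs, against 4.52 through 5.11 to 5.50 in high_RFI pigs. The same low_RFI pig was highest, and high_RFI replicates 5 and 6 were the lowest of all, at 4.53 and 4.52. The difference of COL1A2 was 0.29 ± 0.19 (limma adjusted p = 0.844), with a 95% interval from -0.12 to 0.70. It was 0.17 without low_RFI replicate 4 and 0.13 as the mean over the 3 COL1A2 probes. Of these 3, the probe with the glycine repeat holds that repeat only on the strand opposite to the listed one. Whether that probe reads the COL1A2 transcript was not tested.

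DCN, LUM and BGN are small leucine-rich proteoglycans, and DCN and LUM lie next to each other in the RefSeq gene table of the pig assembly Sscrofa11.1. Decorin, the product of DCN, binds collagen fibrils and limits their width. Its level ran from 6.23 through 6.71 to 7.08 in low_RFI pigs and from 6.25 through 6.61 to 6.91 in high_RFI pigs, ranges that nearly coincided. The difference was 0.035 ± 0.12 (limma adjusted p = 0.997), with a 95% interval from -0.23 to 0.30. BGN encodes biglycan, a close relative of decorin. Its single probe gave signals of 18 to 43 units and was well above background on 14 of 15 arrays, while every other probe was so on all 15. BGN ran from -4.07 through -3.90 to -3.32 in low_RFI pigs and from -4.21 through -3.77 to -3.35 in high_RFI pigs, with a difference of -0.0048 ± 0.14 (limma adjusted p = 0.998).

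LUM encodes lumican, which spaces fibrils and carries keratan sulphate chains in some tissues. It had the largest line difference of the 8 genes. The LUM level ran from 2.43 through 2.70 to 3.09 in low_RFI pigs, against 1.12 through 2.41 to 2.92 in high_RFI pigs. In the high_RFI line 4 of the 8 pigs lay below the lowest low_RFI pig, and the other 4 lay among the low_RFI pigs. The means were 2.71 ± 0.23 in low_RFI and 2.26 ± 0.55 in high_RFI pigs (SD, n = 7 and 8). The difference of 0.45 ± 0.21, or 1.37-fold, had an unadjusted p of 0.0473 and an adjusted p of 0.70 in limma, with the low_RFI pig higher in 41 of 56 pairs of pigs. It was 0.67 among pigs 55 to 62 and 0.22 among pigs 1 to 8. On each of the 4 slides that held the arrays it was positive, from 0.19 to 0.65. Each slide held only a few pigs of a line, and the 0.67 and the 0.65 both include high_RFI replicate 6. High_RFI replicate 6 was the lowest pig, 1.12 against 2.03 for the next, and without it the difference was 0.29 (limma adjusted p = 0.884).

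The 8 LUM probes all had a positive difference, from 0.15 to 0.45. Among them 6 had an unadjusted p under 0.05, against 6.64% of all probes, and no probe of the array passed an adjusted p under 0.05 (0%). The smallest adjusted p among the LUM probes was 0.588 over the 31984 probes. These probes are repeated readings of 1 transcript and not further pigs, and 7 of their 28 pairs shared at least 20 bases. The probe printed above was at 0.73 ± 0.15 in low_RFI pigs and 0.42 ± 0.24 in high_RFI pigs, a difference of 0.31 ± 0.11. The 27 probes of the other genes gave no unadjusted p under 0.05.

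**Figure D2:**
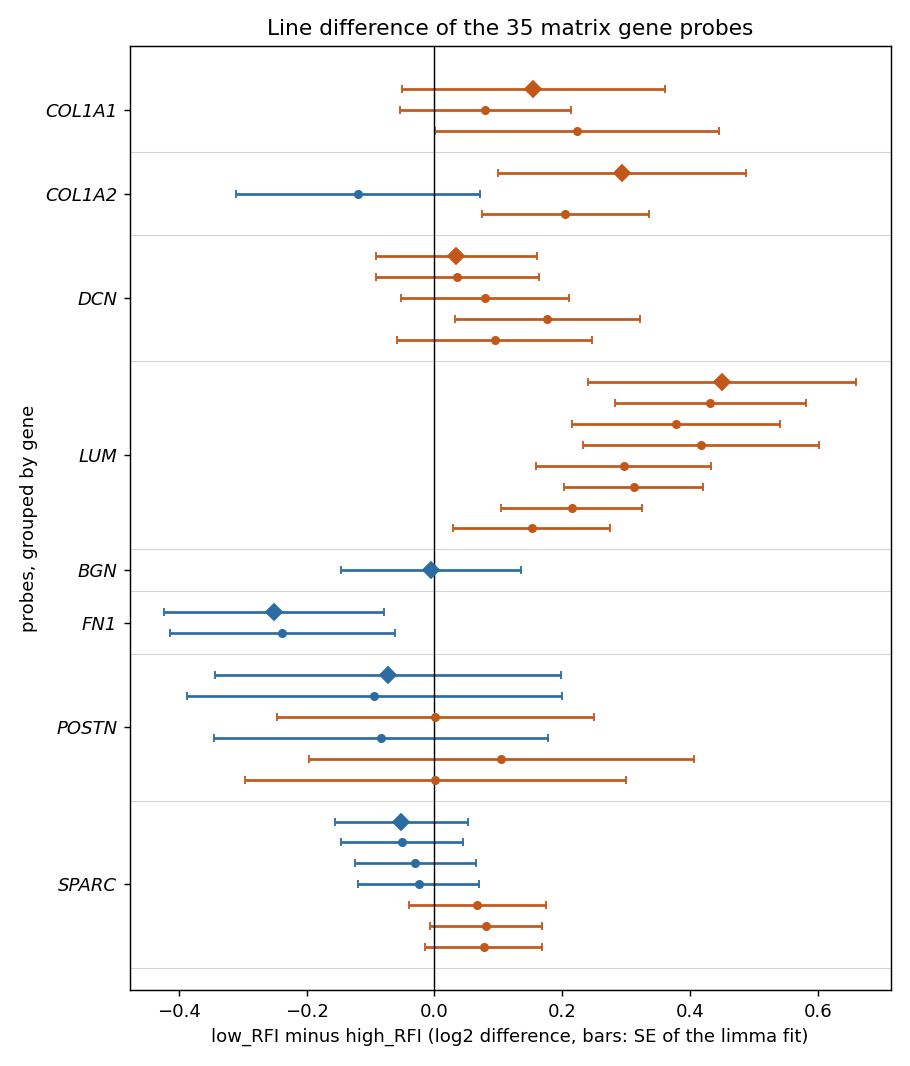
Difference between the lines (low_RFI minus high_RFI, log2) for each of the 35 probes, grouped by gene and ordered by brightness within a gene, with bars of 1 SE from limma; diamonds are the probe that stands for the gene, orange is above 0 and blue below. The 8 LUM probes lie from 0.15 to 0.45, both FN1 probes lie near -0.24 and -0.25, and the SPARC probes lie on both sides of 0.

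FN1 encodes fibronectin, which ties collagen to integrins on the cell surface. The FN1 level ran from 2.84 through 3.09 to 3.81 in low_RFI pigs, against 2.86 through 3.54 to 3.94 in high_RFI pigs. Above 3.50 stood low_RFI replicate 4 and 5 high_RFI pigs. The difference was -0.25 ± 0.17 (limma adjusted p = 0.853), with a 95% interval from -0.61 to 0.11. Its 2 probes shared 54 bases and correlated at 0.994 over the pigs, so they are close to 1 measurement.

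POSTN encodes periostin, a matrix protein that helps to crosslink collagen. POSTN varied most of the 8 genes, with an SD of 0.55 over the 15 pigs, larger than in 87.6% of all genes. It ran from 1.32 through 1.75 to 2.54 in low_RFI pigs and from 1.02 through 1.89 to 2.59 in high_RFI pigs. Its difference was -0.072 ± 0.27 (limma adjusted p = 0.997), and 3 of its 6 probes were higher in low_RFI pigs. SPARC encodes osteonectin, which binds collagen and calcium. By its brightest probe it ran from 5.75 through 5.91 to 6.18 in low_RFI pigs and from 5.56 through 6.06 to 6.18 in high_RFI pigs. Its difference was -0.052 ± 0.10 (limma adjusted p = 0.991), and its SD of 0.18 was larger than in 23.8% of all genes. The median SD of the 8 genes was 0.39, beside 0.26 over all genes.

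Over the pigs, most of the matrix genes moved together. The 28 pairs of the 8 genes had a median Pearson's r of 0.45, and 22 pairs were above 0. All pairs of the 4966 tested genes without missing values had a median of 0.0060, and 8.66% of them were at or above 0.45. An r over 0.7 was found in 5 of 28 matrix pairs and in 1.09% of all pairs. After adjustment over the 28 pairs, 6 had a permutation p under 0.05 by Pearson's r and 8 by Spearman's rho. The permutations moved values over all 15 pigs, across the 2 runs of pig numbers. These p-values therefore do not separate a shared difference between the runs from co-variation within them. With each run centred on its own mean, the 6 pairs had r from 0.504 (FN1 with DCN) to 0.827 (COL1A1 with COL1A2). The median r was 0.238 when the 2 pigs farthest from the median of a pair's leading gene were left out.

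**Figure D3:**
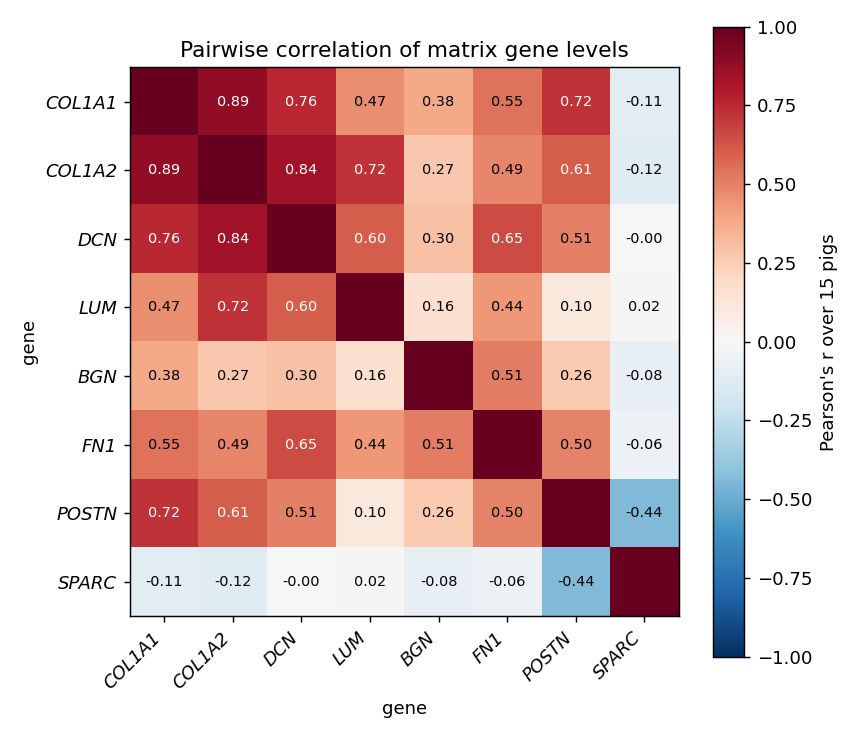
Pearson's r over 15 pigs for each pair of matrix genes, from -1 (blue) to 1 (red), with the value in each cell. COL1A1, COL1A2 and DCN form the reddest block, from 0.76 to 0.89, and the row of SPARC, by its brightest probe, lies between -0.44 and 0.02.

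By their brightest probes, the type I collagen chains were the closest pair. COL1A1 and COL1A2 had r = 0.888 and rho = 0.829 over 15 pigs (permutation p = 3e-05 and 0.00024, adjusted p = 0.00084 and 0.00672, two-sided). Their r was 0.756 without the 2 pigs farthest from the COL1A1 median. It was 0.980 in low_RFI and 0.792 in high_RFI pigs, and 0.471 among pigs 55 to 62 and 0.957 among pigs 1 to 8. COL1A2 and DCN had r = 0.843 (permutation p = 0.00014, adjusted 0.00196) and rho = 0.789 (permutation p = 0.00083, adjusted 0.0116). Their r was 0.693 without the 2 farthest pigs, 0.598 among pigs 55 to 62 and 0.898 among pigs 1 to 8. COL1A1 and DCN had r = 0.756 and rho = 0.721 (permutation p = 0.0011 and 0.00331, adjusted p = 0.0103 and 0.0236). That r was 0.612 without the 2 farthest pigs and 0.193 among pigs 55 to 62.

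Other pairs that passed by Pearson's r joined the collagen chains and DCN to the remaining genes. COL1A1 and POSTN had r = 0.722 and rho = 0.721 (permutation p = 0.00169 and 0.00337, adjusted p = 0.0118 and 0.0236), with 0.674 without the 2 farthest pigs, 0.694 among pigs 55 to 62 and 0.599 among pigs 1 to 8. COL1A2 and LUM had r = 0.719 and rho = 0.675 (permutation p = 0.00321 and 0.00744, adjusted p = 0.018 and 0.0417), with 0.512 without the 2 farthest pigs and 0.622 among pigs 55 to 62. FN1 and DCN had r = 0.651 and rho = 0.643 (permutation p = 0.00848 and 0.0118, adjusted p = 0.0396 and 0.047), with 0.402 without the 2 farthest pigs and 0.154 among pigs 55 to 62, so that relation was not seen in that run. The neighbouring genes DCN and LUM had r = 0.603 (permutation p = 0.0168, adjusted 0.0587) and rho = 0.636 (permutation p = 0.0127, adjusted 0.047), with r = 0.795 without the 2 farthest pigs. BGN passed with no other gene, and its highest r was 0.510, with FN1.

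Few pigs carried much of this co-variation. The mean of the 8 standardised levels was 1.60 SD in low_RFI replicate 4, 0.92 in high_RFI replicate 4 and 0.61 in low_RFI replicate 3. The lowest pigs were high_RFI replicate 6 at -0.88 and low_RFI replicate 2 at -0.82. Low_RFI replicate 4 was the highest pig in COL1A1, COL1A2, DCN and LUM. By a hair it was also the highest in SPARC by the brightest probe, where high_RFI replicates 5, 7 and 8 round to the same 6.18. Without both replicates numbered 4, left out after the data were seen, the median r of the 28 pairs was 0.21, COL1A1 with COL1A2 had 0.791 and COL1A2 with DCN had 0.736. By line the mean of the standardised levels was 0.070 ± 0.81 in low_RFI and -0.061 ± 0.55 in high_RFI pigs (SD, n = 7 and 8). Both ends of this order held pigs of both lines.

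**Figure D4:**
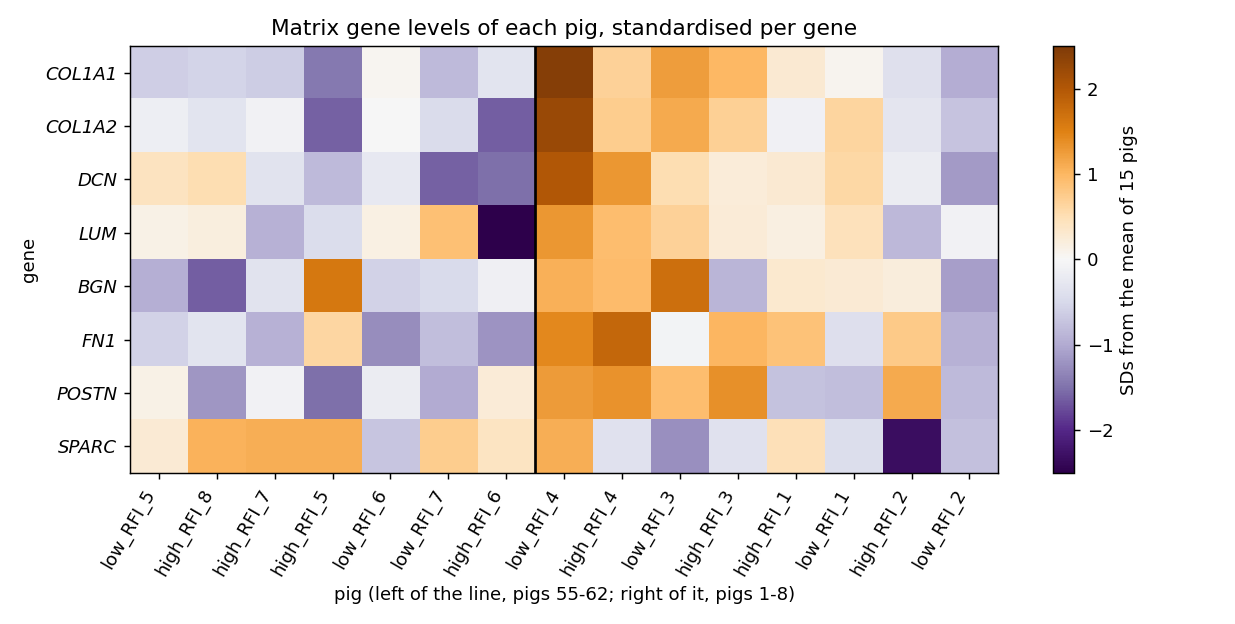
Level of each matrix gene in each pig, in SDs from that gene's mean over 15 pigs, with pigs 55 to 62 left of the black line and pigs 1 to 8 right of it, each run ordered from the highest to the lowest mean over the genes. Low_RFI_4, with a mean of 1.60, stands out in most rows, while the pigs 55 to 62 lie between -0.88 and -0.17 on average.

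Within the runs of pig numbers the co-variation took other values. The median r of the 28 pairs was -0.059 among pigs 55 to 62 (13 pairs above 0) and 0.579 among pigs 1 to 8 (27 pairs above 0), so it was not seen in the run 55 to 62 as a whole. After each run was centred on its own mean the median was 0.304, with 26 pairs above 0. The difference between the runs was not tested. The median was 0.732 in low_RFI and 0.325 in high_RFI pigs.

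The mean levels in the 2 runs were also compared. Of the 8 genes 7 had a lower mean in pigs 55 to 62, where 58.8% of all genes did, and the median difference (pigs 55 to 62 minus pigs 1 to 8, with line in the model) was -0.39 beside -0.045 over all genes. None of the 8 passed an adjusted p under 0.05, against 3.52% of all genes, and 4 had an unadjusted p under 0.05, against 22.4%. FN1 averaged 3.07 ± 0.23 in pigs 55 to 62 and 3.50 ± 0.34 in pigs 1 to 8 (SD, n = 7 and 8), a difference of -0.45 ± 0.13 (SE, limma adjusted p = 0.0704). COL1A2 differed by -0.45 ± 0.16 (limma adjusted p = 0.117), COL1A1 by -0.48 ± 0.17 (adjusted p = 0.122) and POSTN by -0.54 ± 0.24 (adjusted p = 0.208). SPARC, by its brightest probe, was the exception in sign, at 6.09 ± 0.12 in pigs 55 to 62 and 5.89 ± 0.19 in pigs 1 to 8 (limma adjusted p = 0.242). No gene of the array passed an adjusted p under 0.05 for a line difference that varied by run (0%), and the smallest of the 8 genes was 0.980; at an unadjusted p under 0.05 there were 0 of the 8, against 5.45% of all genes. What the numbers mark is not given in the labels.

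The pattern of SPARC over the pigs depended on the probe. By its brightest probe its 7 pairs had a median r of -0.083 and 1 above 0, the lowest being -0.443 with POSTN. These values also varied by run. Among pigs 55 to 62 they ran from -0.754 to 0.602, among pigs 1 to 8 from -0.133 to 0.727 with 6 of 7 above 0, and with each run centred on its own mean from -0.239 to 0.413, again with 6 of 7 above 0. POSTN was the gene below 0 in the last 2 of these sets. The 21 pairs without SPARC were all above 0, with a median of 0.505. The 60-base sequence printed above, as the mean of its 2 probes, gave a median r of 0.615 with the same 7 genes, all above 0. It had r = 0.729 with COL1A2, 0.708 with COL1A1, 0.677 with LUM and 0.398 with POSTN. This sequence was singled out after its values were seen, so these are descriptions without a test.

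A like split was seen against the mean of the other genes over all 15 pigs. The 2 probes of the repeated sequence had r = 0.771 and 0.757 with that mean, and the other 5 SPARC probes had -0.234 to 0.155. Within the runs the sets lay closer together. Among pigs 55 to 62 they overlapped, at -0.182 and 0.395 for the repeated sequence and -0.584 to 0.344 for the other 5, and among pigs 1 to 8 all 7 probes were above 0, at 0.890 and 0.928 for the repeated sequence and 0.447 to 0.713 for the other 5. Between the repeated sequence and the brightest probe r was 0.274, although its own 2 copies correlated at 0.907. Among pigs 1 to 8 the repeated sequence had r between 0.507 and 0.926 with the 7 genes, and among pigs 55 to 62 between -0.716 and 0.712. Its line difference was 0.081 ± 0.088 and 0.077 ± 0.091 by its 2 copies, against -0.052 ± 0.10 by the brightest probe, and none passed. Between the runs its copies differed by -0.097 and -0.057 (pigs 55 to 62 minus pigs 1 to 8, differences of means), opposite in sign to the 0.19 of the brightest probe. The files give SPARC as the name of all 7 probes, and which part of the transcript each one reads was not tested.

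**Figure D5:**
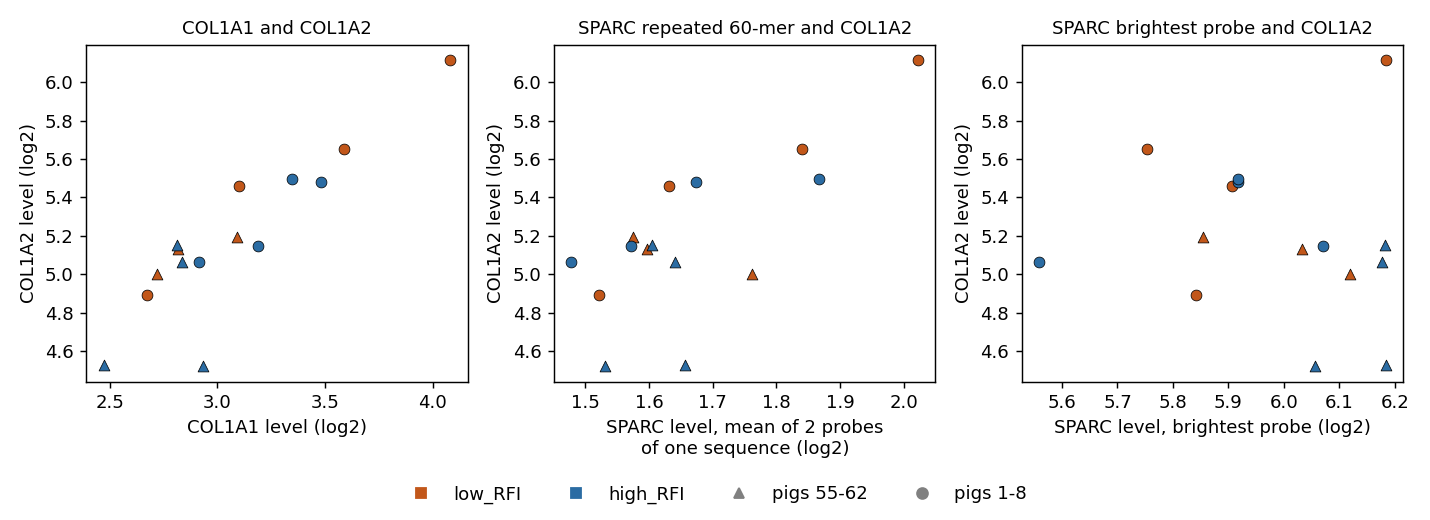
COL1A2 level against the COL1A1 level (left), the SPARC level by the repeated 60-base sequence (middle) and the SPARC level by its brightest probe (right), in log2, 1 point per pig; orange is low_RFI, blue high_RFI, triangles pigs 55 to 62 and circles pigs 1 to 8. The points follow a rising line on the left (r = 0.888) and more loosely in the middle (r = 0.729), and show no such line on the right (r = -0.123).

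Other genes with several probes differed in how well these followed each other. The 5 DCN probes correlated at 0.671 to 0.928, the 8 LUM probes at 0.376 to 0.980 and the 6 POSTN probes at 0.606 to 0.983. The 3 COL1A1 probes did not follow each other, with r from -0.191 to 0.055, and 2 of them were named only by similarity to another species, with signals of 32 to 322 units. With the mean of the other matrix genes, the brightest COL1A1 probe had r = 0.826, and these 2 had 0.049 and -0.112. The co-variation given for COL1A1 thus rests on its brightest probe. For COL1A2 the brightest probe had r = 0.752 with the probe that holds the glycine repeat and 0.481 with the remaining probe, whose line difference was -0.12 beside 0.29.

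Among 4589 other named genes, those most like the matrix genes were ranked by r with the mean of the 8 standardised levels over the 15 pigs, given as a likeness without a test. The 10 closest held further matrix genes, but other matrix genes lay far from the top. The 12 other collagens tested ran from -0.201 for COL19A1 to 0.862 for COL12A1. The 17 proteoglycan, glycoprotein and elastic fibre genes tested ran from -0.400 for SPP1 to 0.772 for MFAP2. The 6 collagen processing genes tested ran from -0.377 for LOXL4 to 0.598 for PCOLCE2. COL12A1 and COL14A1, collagens that lie on the surface of type I fibrils, had r = 0.862 and 0.855, and COL5A1, a chain that starts fibrils, had 0.816. MFAP2, a microfibril protein, had 0.772, and CSGALNACT2 and EXT1, enzymes that build the sugar chains of proteoglycans, had 0.777 and 0.774. SLC22A17, a transporter of the solute carrier family, was first, at 0.866. TSC1, a brake on mTOR signalling, had 0.795, CCL21, a chemokine, 0.775, and ADAM15, a membrane protease, 0.772. Among pigs 55 to 62 COL12A1 had 0.814, COL14A1 0.749 and MFAP2 0.733, while SLC22A17 had 0.103 and EXT1 0.026. The lowest were IL1B, an inflammatory cytokine, at -0.792, PLCD4, a phospholipase, at -0.786, MESP2 at -0.764, PITPNC1 at -0.743 and ISG15, an interferon-induced gene, at -0.731. Several of these were dim, with mean levels of -4.87 for COL12A1, -4.69 for TSC1 and -4.36 for IL1B.

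Lists of related genes showed no line difference past the adjusted threshold in any member. Of 12 other collagens tested, of 22 listed, 6 had a higher and 6 a lower mean in low_RFI pigs, with a median difference of -0.018. COL11A1, a minor fibril chain, was at -0.30 ± 0.48 in low_RFI and -0.95 ± 0.70 in high_RFI pigs (SD, n = 7 and 8), with a limma adjusted p of 0.682. Of 6 collagen processing genes tested, of 25 listed, 5 had a higher and 1 a lower mean, and P4HA1, which hydroxylates collagen prolines, differed by 0.40 ± 0.17 (limma adjusted p = 0.671). Of 17 proteoglycan, glycoprotein and elastic fibre genes, 10 had a higher and 7 a lower mean, and CYR61, a matricellular growth regulator, differed by 0.73 ± 0.36 (limma adjusted p = 0.755). The 2 basement membrane genes tested, COL4A6 and LAMB1, differed by 0.040 and -0.018.

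The signalling and turnover lists were similar in that no member passed. All 10 TGF-beta signalling genes tested, of 18 listed, had a higher mean in low_RFI pigs, by 0.016 to 0.20, where 54.8% of all genes did, and none had an unadjusted p under 0.05. Of 15 matrix breakdown genes, 9 had a higher and 6 a lower mean, and PLAU, the urokinase protease, differed by -0.45 ± 0.21 (limma adjusted p = 0.70). Of 8 matrix receptors, 3 had a higher and 5 a lower mean. DDR2, a receptor kinase that binds fibrillar collagen, was at -0.52 ± 0.33 in low_RFI and -1.07 ± 0.27 in high_RFI pigs (SD, n = 7 and 8). Its difference of 0.55 ± 0.15 had the smallest p of these lists, 0.00199 unadjusted and 0.350 adjusted in limma. DDR2 also differed between the runs, by -0.45 (pigs 55 to 62 minus pigs 1 to 8, limma adjusted p = 0.030). Of all genes 3.52% passed for the run.

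Markers of the cell types that a muscle sample can hold were set beside the matrix genes. Ranges are of each list's summed level per pig. Each r of a list is that of the mean of its standardised levels, not of the sum. The 6 fibroblast markers tested, of 14 listed, summed to 2.20 to 3.18 in low_RFI and 2.24 to 2.95 in high_RFI pigs. The mean of their standardised levels had r = 0.828 with the matrix genes, 0.286 among pigs 55 to 62 and 0.901 among pigs 1 to 8. The single markers varied, from -0.133 for S100A4 through 0.154 for PI16, 0.222 for TCF7L2, 0.480 for CD34 and 0.689 for THY1 to 0.769 for FBN1, fibrillin, which is itself a matrix gene and also stands in the elastic fibre list. The 5 smooth muscle and pericyte markers had r = 0.586, with -0.079 among pigs 55 to 62 and 0.665 among pigs 1 to 8. Muscle fibre markers, 15 of 16, summed to 13.1 to 13.4 in low_RFI and 13.1 to 13.4 in high_RFI pigs, with r = 0.164. Adipocyte markers (8 of 11) had r = 0.021, endothelial markers (7 of 10) 0.251, and leukocyte and macrophage markers (6 of 12) -0.442. The leukocyte and macrophage value was -0.041 among pigs 55 to 62 and -0.334 among pigs 1 to 8. Tendon markers (3 of 8) had r = 0.522, with -0.28 among pigs 55 to 62 and 0.53 among pigs 1 to 8. Singly, COMP had 0.619, TNMD 0.275 and TNC 0.192, and COMP and TNC also stand in the glycoprotein list. TNMD, tenomodulin, was at -2.12 ± 1.01 in low_RFI and -3.11 ± 0.93 in high_RFI pigs (limma adjusted p = 0.70). Satellite cell markers (3 of 8) had r = 0.121, with -0.329 among pigs 55 to 62 and 0.611 among pigs 1 to 8. Nerve markers (4 of 6) had -0.207 over all pigs, but 0.149 among pigs 55 to 62 and 0.125 among pigs 1 to 8. Chondrocyte and bone markers (5 of 7) had -0.263, with -0.012 among pigs 55 to 62 and -0.796 among pigs 1 to 8. The 7 proliferation genes tested all had a higher mean in low_RFI pigs, where 54.8% of all genes did; 5 of them had an unadjusted p under 0.05, against 7.12% of all genes, and none passed adjustment (smallest limma adjusted p = 0.552). The mean of their standardised levels had r = 0.294 with the matrix genes. The 3 satellite cell markers and the 5 chondrocyte and bone markers tested all had a lower mean in low_RFI pigs. Of all 5029 genes, 2274 did. MYOD1, a satellite cell marker, differed by -0.54 ± 0.17 (SE, limma unadjusted p = 0.00615, adjusted p = 0.474). The part of these cell types in the matrix values was not tested.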

How the data were processed

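RNA (150 ng per pig) was labelled with Cy3, per the labels' protocols. Per the file headers, the deposited scanner intensity values come from Agilent Feature Extraction 10.7.3.1 (protocol GE1_107_Sep09), background-subtracted and detrended, with no normalization between arrays. The deposited table holds log2 values made by the authors, whose processing notes name R 2.10.0; on the files these equalled log2 signal minus each array's median over 29364 features, within 4.93e-08, and served as an alternative.

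Levels were log2 of the processed signal, less the 75th percentile that probes other than controls had on that array. Control and non-uniform spots were left out and spots of 1 probe averaged. A probe was tested when well above background on at least 7 arrays with at least 4 values per line. A gene was its tested probe of highest mean level. Names came from the files and a RefSeq gene list of assembly Sscrofa11.1. Of 43603 probes, 12927 had 1 gene, 98 several and 30578 none, and genes without a named probe were not analysed here. Lines were fitted over all genes with limma 3.58.1 in R 4.3.3 (statmod 1.5.0, version 1.17.8 of the data.table package), two-sided, with Benjamini-Hochberg adjustment at 0.05. Intervals are 95%. Correlations used 100000 resamples in Python 3.11.15 with scipy 1.17.1. Both steps were tested on simulated data. The number of arrays limits the precision.

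Named genes were the members, up to 4 genes of smallest p and the defining markers of each list, and the 10 genes most like the members and 5 least like them. The members and lists were chosen with earlier results of these data known. Same-numbered replicates were not treated as pairs. Their deviations from the line means correlated at -0.020 to 0.30 over 7 numbers, which cannot exclude a pairing. Alternatives were background correction, scaling, filters, probe averaging, slide, run and replicate blocks, array weights and left-out pigs.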

Additional observations from a re-analysis of the deposited data

Results flagged for a closer look

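One value stood far from the rest of its group. SPARC, by its brightest probe, was at 5.56 in high_RFI replicate 2, the lowest of the 8 high_RFI pigs, against 5.92 for the next lowest. Of 16 gene and line groups examined in this way, 1 gave such a value, and chance gives about 1 in 20. The repeated SPARC sequence was also lowest in that pig, at 1.48.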

How the results depend on the processing

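In none of the 31 alternatives, 2 of them chosen after seeing the data, did a matrix gene pass the adjusted threshold, and the smallest adjusted p in any was 0.523, for LUM with the replicate block. The LUM difference stayed between 0.29 and 0.54, that of FN1 between -0.36 and -0.15, and that of COL1A2 between 0.13 and 0.37. The median difference lay between -0.047 and 0.10. Signs turned for genes close to 0: SPARC gave 0.026 with normexp background correction and 0.0097 as the mean over its probes, DCN -0.0061 with quantile normalization, POSTN 0.089 with array weights, and BGN 0.00094 with quantile normalization, 0.00086 with median scaling, 0.020 with slide as a block and 0.12 with array weights. Leaving out 1 pig at a time gave -0.041 to 0.10 for DCN, -0.081 to 0.056 for BGN and -0.20 to 0.029 for POSTN. BGN was not tested when all arrays had to be well above background. The median pairwise r was 0.45 as reported, 0.27 with normexp and 0.21 without both replicates numbered 4. It was 0.33 to 0.50 when 1 pig was left out and -0.10 with the replicate block. That block treats same-numbered pigs as pairs, and 1 of 7 low_RFI pigs correlated best with its own number. With that block 0 of 5029 genes were called, against 1 without it. The causes of these shifts were not tested.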
